A study of Rattus norvegicus with 8 samples.

Results

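The lysyl hydroxylase genes Plod1, Plod2 and Plod3 and the long noncoding transcript MRAK052872 were followed on 1-colour arrays of rat skin. They were found by accession: probes whose RefSeq accession belongs to 1 of the 3 genes, and probes that carry the name MRAK052872. This gave 4 of the 24293 genes or transcripts on the array and 5 of its 24684 probes, because Plod2 has a probe for each of its 2 RefSeq transcripts, NM_175869 and NM_001142915. All 5 probes were among the 21527 tested, and each was well above background in all 8 samples with no saturated spot. One group is skin, taken at full thickness, of male Sprague-Dawley rats given 60 mg/kg streptozotocin (STZ, which destroys pancreatic beta cells) by intraperitoneal injection. The other is the same skin of male rats sham-treated with sodium citrate solution. Treatment was at 4 weeks of age and skin was taken 4 weeks later, at 8 weeks. Blood glucose is not given in the labels used here, so the STZ group is named by its injection, and the labels also mention a skin wound without saying whether the profiled skin had one. How many rats went into each array is not given either.

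Lysyl hydroxylases act on procollagen chains in the endoplasmic reticulum, where they turn lysines into hydroxylysines with iron, ascorbate and 2-oxoglutarate. Hydroxylysines carry the sugars of collagen and form the more stable of its crosslinks, which lysyl oxidases start outside the cell. Plod1 codes for the enzyme that acts mainly on the triple helix, and its loss in humans gives a form of Ehlers-Danlos syndrome with fragile skin. Plod2 codes for the enzyme of the telopeptides, the non-helical chain ends, and human Bruck syndrome can follow from its loss. The product of Plod3 also adds sugars to hydroxylysine and in mice is needed for basement membranes. MRAK052872 is one of the array's noncoding transcripts. It has been linked to Plod1 in diabetic wound healing in rats, so the pair is the first question here. The other is whether the 3 enzymes differed alike between STZ and sham skin.

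The labels list 4 samples per group, but per the file headers these are 2 scans of 4 array positions. Deviations of repeated spots from their probe's mean correlated at 0.986 or more within these pairs and at 0.763 or less between all other samples. Each pair was averaged, which left STZ-A (STZ replicates 1 and 3) and STZ-B (2 and 4), and sham-A (sham replicates 1 and 3) and sham-B (2 and 4), with n = 2 arrays each. Values of a group are given in the order A, B. The exact permutation test cannot go below p = 0.333 at this size. All 4 arrays were on 1 slide, the STZ arrays at positions 1 and 2 and the sham arrays at positions 3 and 4. Position on the slide therefore cannot be told apart from treatment. The 75th percentile of intensity was 1481 and 1496 in the scans of STZ-A, 606 and 624 in those of STZ-B, and 1138 to 1336 in the sham samples. STZ-B was thus the dimmest. Of 21527 probes 0 passed limma's moderated test after adjustment (0% called), while 1575 were higher in STZ (7.32%) and 761 were lower (3.54%) with an unadjusted p below 0.05. After quantile normalization that split was 1233 and 1152. Levels below are log2 intensities over the array's 75th percentile, and changes are STZ minus sham on that scale. The median tested probe was itself 0.23 higher in STZ, so each change is also given relative to that median.

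The promoters of the enzymes are shown because Plod2 stood apart from Plod1 and Plod3 in the arrays. HIF, the hypoxia-inducible factor, is known to raise PLOD2 in human cells, and its core motif was searched for in the form ACGTG. The sequences are the 250 bases before the annotated start, from the RefSeq table of rat build GRCr8, 5′ to 3′ on the gene's strand. They lie at chr5:163650738-163650987 (minus strand) for Plod1, chr8:101964068-101964317 (plus strand) for Plod2 and chr12:25323632-25323881 (minus strand) for Plod3. Capitals mark the HIF core ACGTG on either strand, which reads CACGT where it lies on the other strand.
Plod2: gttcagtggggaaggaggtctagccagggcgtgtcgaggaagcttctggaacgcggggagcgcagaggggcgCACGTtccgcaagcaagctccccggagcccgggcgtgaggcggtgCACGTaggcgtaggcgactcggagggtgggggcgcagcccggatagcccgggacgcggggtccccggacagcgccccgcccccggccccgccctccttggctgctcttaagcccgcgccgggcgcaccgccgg
Plod1: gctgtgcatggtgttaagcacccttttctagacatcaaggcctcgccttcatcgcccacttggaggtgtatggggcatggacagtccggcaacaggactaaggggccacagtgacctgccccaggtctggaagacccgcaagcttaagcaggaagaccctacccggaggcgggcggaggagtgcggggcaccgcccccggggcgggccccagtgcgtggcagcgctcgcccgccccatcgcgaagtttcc
Plod3: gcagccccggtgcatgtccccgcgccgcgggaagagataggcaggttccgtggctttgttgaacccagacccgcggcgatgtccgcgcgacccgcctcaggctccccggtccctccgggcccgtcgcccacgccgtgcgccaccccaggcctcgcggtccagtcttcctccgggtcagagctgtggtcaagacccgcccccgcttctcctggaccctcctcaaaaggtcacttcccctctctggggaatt

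The Plod2 window held ACGTG 2 times, with first bases 178 and 133 bases before the start. The windows of Plod1 and Plod3 held ACGTG 0 times. Of 33469 rat promoters of the same length, 16.6% held it at least once and 6.53% at least 2 times. The HIF core can also read GCGTG, which was not counted. Each of the 3 windows holds GCGTG on at least 1 strand. The Sp1 box GGGCGG, also searched on both strands and not overlapping ACGTG in letters, was found 4 times in the Plod1 window, 2 times in that of Plod2 and 1 time in that of Plod3, while 30.5% of all promoters held it at least once, 14.8% at least 2 times and 3.67% at least 4 times. All 3 windows were rich in G and C, at 65.6% for Plod1, 74.8% for Plod2 and 69.6% for Plod3. A match is a description of letters and shows no binding. No file used here holds the sequence or position of MRAK052872, so none is given.

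Plod2 was the member furthest above its sham level. On the probe of NM_175869 it stood at 0.85 on STZ-A and 0.63 on STZ-B, against −1.33 on sham-A and −1.38 on sham-B. On the probe of NM_001142915 it stood at 0.64 and 0.32 on the STZ arrays, against −1.48 and −1.46 on the sham arrays. Both probes thus lay above the 75th percentile in STZ skin and below it in sham skin, with no overlap. The lowest STZ array was 1.96 above the highest sham array on the first probe and 1.78 on the other. The change was 2.09 ± 0.42 (SE, 95% interval 1.02 to 3.17) for NM_175869, a 4.27-fold difference, and 1.87 relative to the median of all probes. For NM_001142915 it was 1.95 ± 0.42, and 1.73 relative to the median. Limma gave an unadjusted p of 0.00407 and an adjusted p of 0.194 for NM_175869, so it did not pass, and the adjusted p of NM_001142915 was 0.209. Among all tested probes 5.39% had a change as large as that of NM_175869 or larger, and 6.22% one as large as that of NM_001142915.

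Both Plod2 probes gave nearly the same picture. The NM_175869 probe was 0.21 and 0.31 brighter than that of NM_001142915 on the STZ arrays and 0.16 and 0.08 brighter on the sham arrays. Its change therefore exceeded that of the other probe by 0.14 on the log2 scale, a 1.101-fold difference. Although the groups do not overlap, exact p = 0.333 is the smallest this design allows.

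**Figure D1:**
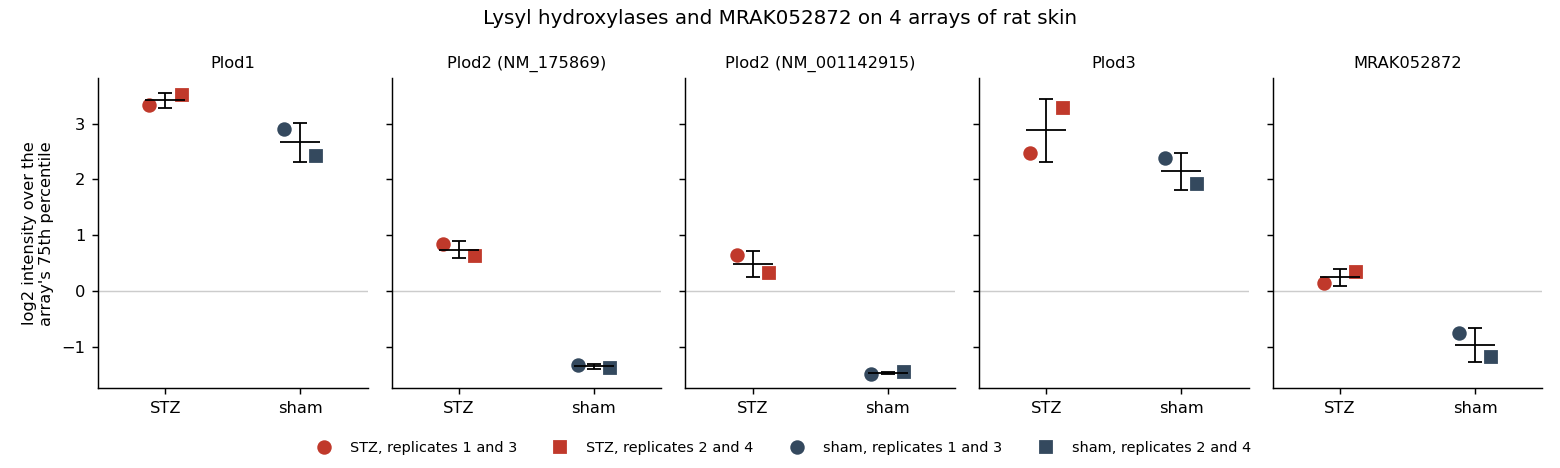
Level of each probe on each array, in log2 units relative to the 75th percentile of that array, with circles for replicates 1 and 3 and squares for replicates 2 and 4. Bars show the mean ± SD (n = 2 arrays). Both Plod2 probes lie above 0 in STZ skin and below −1.3 in sham skin, while the groups come within 0.10 of each other for Plod3.

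Plod1 and Plod3 were higher in STZ skin by less. Plod1 stood at 3.33 and 3.52 on the STZ arrays, against 2.91 and 2.42 on the sham arrays. The STZ arrays lay close together and both were above the sham arrays, by at least 0.41. The change was 0.76 ± 0.44 (SE, 95% interval −0.39 to 1.90), and 0.53 relative to the median of all probes. Plod3 stood at 2.48 and 3.28 on the STZ arrays, against 2.38 and 1.91 on the sham arrays. Its STZ arrays differed by more than the lower of them differed from sham. The change was 0.74 ± 0.51 (95% interval −0.56 to 2.04), and 0.51 relative to the median. Neither passed limma's test (adjusted p = 0.599 for Plod1 and 0.628 for Plod3), and 29.5% and 30.2% of all tested probes had a change at least as large. With each array centred on its median probe instead, Plod3 was at 4.22 and 4.82 in STZ against 4.28 and 3.63 in sham, so the groups overlap. Plod1 stayed apart there, at 5.07 and 5.06 in STZ against 4.82 and 4.13 in sham. So did Plod2 and MRAK052872, whose values were 1.88 and 1.88 in STZ against 1.15 and 0.53 in sham. On these values 21% of all tested probes had STZ above sham without overlap and 22.7% had it below.

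The deposited intensities show what the scaling does. Plod1 read 14925 on STZ-A and 7048 on STZ-B, against 8707 and 7041 on the sham arrays. Before scaling, the dim STZ-B was thus between the sham arrays for Plod1. Plod3 read 8303 and 5979 in STZ against 6013 and 4956 in sham, which overlap too. Plod2 (NM_175869) read 2682 and 953 in STZ against 461 and 507 in sham, apart even before scaling. MRAK052872 read 1643 and 782 in STZ against 687 and 579 in sham, and was apart as well. The share of all tested probes that are apart before scaling was not computed.

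MRAK052872 was higher in STZ skin by an amount between those of Plod2 and Plod1. It stood at 0.14 and 0.34 on the STZ arrays, against −0.75 and −1.19 on the sham arrays. The groups do not overlap, with 0.89 between the nearest arrays. The transcript has 3 spots on each array, which spread over 0.05 to 0.20 within a sample. The 0.05, of sham replicate 2, counts an outlier spot that was left out of the level. Rescans of the transcript differed by at most 0.005. Its change was 1.21 ± 0.44 (SE, 95% interval 0.08 to 2.34), a 2.31-fold difference, and 0.98 relative to the median. Limma's unadjusted p was 0.0399 and the adjusted p 0.432, so it did not pass.

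Among all tested probes, 15.9% had a change as large as that of MRAK052872 or larger. Of the 2957 tested probes whose names start with MRAK, 366 did (12.4%). The transcript was therefore in the upper part of its class without standing alone there. In that class 3.65% of probes were higher at an unadjusted p below 0.05, against 7.32% of all tested probes. The median change of the class was 0.37, against 0.23 for all tested probes. All 5 probes of the members had STZ and sham arrays that do not overlap, with STZ higher, as did 26.8% of all tested probes. The exact p was 0.333 for each.

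Differences between 2 probes on the same array do not change with a scaling by 1 factor per array, so the members were also set against each other in this way, in 6 pairs. MRAK052872 minus Plod1 was −3.18 and −3.17 on the STZ arrays, against −3.66 and −3.60 on the sham arrays. The SD was 0.008 in STZ and 0.04 in sham, so on this scale the ratio of the 2 transcripts was almost the same on both arrays of a group. In log2 units that ratio was 0.45 higher in STZ, or 1.37-fold. In sham the SD was smaller still for MRAK052872 minus Plod3 (0.023) and Plod3 minus Plod1 (0.019). How often pairs of other probes lie this close was not computed. Plod2 minus Plod1 was −2.48 and −2.89 in STZ, against −4.24 and −3.80 in sham, a difference of 1.34 (2.53-fold). Plod2 minus Plod3 was −1.63 and −2.65 in STZ, against −3.71 and −3.29 in sham, a difference of 1.36. Plod2 minus MRAK052872 was 0.71 and 0.29 in STZ, against −0.58 and −0.19 in sham, a difference of 0.88. MRAK052872 minus Plod3 was −2.34 and −2.94 in STZ, against −3.13 and −3.10 in sham, a difference of 0.48. In these 5 pairs the groups do not overlap (exact p = 0.333 each, the smallest possible). The share of other probe pairs that are apart was not computed. Among single tested probes, 26.8% were apart with STZ higher and 17.8% with STZ lower. Plod3 minus Plod1 was −0.85 and −0.24 in STZ, against −0.53 and −0.51 in sham. These overlap, with a mean difference of −0.02, and 2 arrays per group cannot show that both genes changed alike. Quantile normalization and normexp background correction, which are not 1 factor per array, moved these differences. Over those settings and both together, MRAK052872 minus Plod1 was 0.21 to 0.41 higher in STZ, Plod2 minus Plod1 0.87 to 1.21 and Plod2 minus MRAK052872 0.66 to 0.87, all without overlap. The arrays of a group then lay less close for MRAK052872 minus Plod1. It was −3.22 and −2.99 in STZ with normexp at the 75th percentile, and −3.48 and −3.62 in sham after quantile normalization. MRAK052872 minus Plod3 overlapped between the groups after quantile normalization, with a difference of 0.34, and with normexp added, with 0.21.

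**Figure D2:**
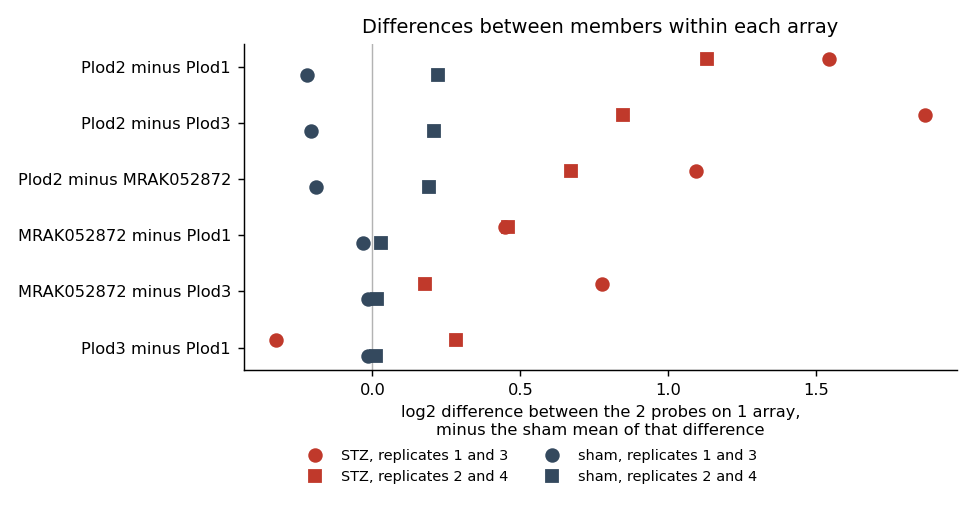
Differences between pairs of members on each array, in log2 units and set to 0 at the sham mean, with Plod2 read on the NM_175869 probe. STZ arrays are red and sham arrays dark, with circles for replicates 1 and 3 and squares for 2 and 4. The STZ arrays of MRAK052872 minus Plod1 coincide at about 0.45, and those of Plod3 minus Plod1 lie on both sides of sham.

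The members also differed in how the 2 arrays of a group related to each other. On median-centred values, STZ-B exceeded STZ-A by 0.59 for Plod3. The difference was −0.01 for Plod1 and −0.003 for MRAK052872, and for Plod2 it was −0.42 (NM_175869) and −0.53 (NM_001142915). Plod2 was therefore higher on the STZ array where Plod3 was lower. In sham skin the difference of sham-B from sham-A was −0.68 for Plod1, −0.66 for Plod3, −0.62 for MRAK052872, and −0.24 and −0.16 for the Plod2 probes. Among the collagen genes, the substrates of these enzymes, 9 of 10 were higher on STZ-B than on STZ-A, as were 8 of 9 fibroblast markers and 55.3% of all tested probes. Lists with the smallest share higher on STZ-B were the hypoxia genes (2 of 24 higher), TGF-beta and SMAD genes (3 of 14), hair markers (1 of 9) and keratinocyte markers (0 of 4). Most genes were lower on STZ-B, like Plod2, in other lists too. These were collagen turnover (4 of 10 higher) and neutrophil (2 of 5), smooth muscle and pericyte (2 of 5) and erythroid markers (3 of 7). The same held for skeletal muscle (3 of 7) and macrophage and dendritic cell markers (4 of 9).

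Genes whose levels over the 4 arrays came closest to each member were sought among 11658 named genes, by the root mean square difference of mean-centred log2 levels. For MRAK052872 the closest was Mrc1, a mannose receptor of macrophages, with a difference of 0.035. Mrc1 stood at 3.42 and 3.56 in STZ, against 2.43 and 2.03 in sham. Next came Septin11, a cytoskeletal GTPase (0.049), and Snai1, a transcription factor of mesenchymal cells (0.053). For Plod1 they were Arpc2 and Actr2, both of the actin-branching Arp2/3 complex (0.041 and 0.044), and Asah1, an acid ceramidase (0.043). For Plod3 they were Plvap, a protein of endothelial vesicles (0.028), the ribosomal protein gene Rpl36a (0.033) and the olfactory receptor gene Or10a3 (0.035). The measure takes no account of level, and the last 2 were dim. Rpl36a stood at −3.69 and −2.97 in STZ, against −3.86 and −4.31 in sham. Or10a3 stood at −4.45 and −3.70 in STZ, against −4.53 and −5.08 in sham. For Plod2 (NM_175869) they were Cotl1, an actin-binding protein (0.089), Fbxo27, an F-box protein (0.093), and Adgre1, the macrophage marker F4/80 (0.1005). On the probe of NM_001142915 they were Cotl1 (0.064), Cela1, an elastase (0.078), and Fbxo27 (0.094). The values are a description only, over 4 arrays.

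Partners of the lysyl hydroxylases differed between STZ and sham skin by less than Plod2 did. Of 13 genes written down for their complexes and for hydroxylysine glycosylation, 12 were tested. Relative to the median of all probes, 9 were higher in STZ and 3 lower, with a median of 0.31, while by construction about 50% of all tested probes lie above it. None of the 12 had an unadjusted p under 0.05, beside 7.32% of all tested probes higher and 3.54% lower at that p. In 5 both STZ arrays lay above both sham arrays, beside 26.8% of all tested probes (3 on median-centred values, beside 21%). The median was 0.07 with STZ-B left out, 0.09 with sham-B left out and 0.63 with sham-A left out. Tmem38b, an ion channel of the endoplasmic reticulum, was 0.77 higher relative to the median. Crtap, a partner of prolyl 3-hydroxylase, was 0.77 higher, with 2.04 and 3.84 in STZ against 1.90 and 1.99 in sham. Fkbp10, a chaperone needed for the activity of lysyl hydroxylase 2, was 0.66 higher, with 3.53 and 5.06 in STZ against 3.79 and 3.03 in sham, which overlap. P4hb, the disulphide isomerase that is also a subunit of prolyl 4-hydroxylase, was 0.65 higher, and P3h4, which joins lysyl hydroxylase 1 in a complex, 0.64 higher.

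The other members of that list were nearer to the median probe. P3h3, also of the lysyl hydroxylase 1 complex, was 0.26 higher relative to the median, Ppib, a prolyl isomerase, 0.22 higher and P3h1, a prolyl 3-hydroxylase, 0.35 higher. Colgalt1, which adds galactose to hydroxylysine, was at 0.06. The collagen chaperone gene Serpinh1 was at −0.05, the lectin gene Erlec1 at −0.20 and the chaperone gene Hspa5 at −0.45. The highest of the 12 values was 0.77, against 1.87 for Plod2.

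Related enzymes gave mixed values. Of 4 prolyl hydroxylase genes tested, 3 were above the median of all probes. The list's median was 0.93, with 0.28 when sham-B was left out and 1.57 when sham-A was. P4ha3, a catalytic subunit of prolyl 4-hydroxylase, stood at −2.07 and −1.54 in STZ, against −4.04 and −4.20 in sham, a change of 2.32 ± 0.45 (adjusted p = 0.182). It was the 1 member of the 4 with an unadjusted p under 0.05, beside 7.32% of all tested probes that were higher at that p. P4ha1, another such subunit, was 0.92 higher relative to the median and P3h2 0.94 higher. Of 4 lysyl oxidase genes 2 were above the median, Loxl1 (0.58) and Loxl3 (0.45), and 2 below, among them Loxl2 (−0.66). The median of that list was −0.003.

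The 10 tested collagen substrates had a median change of 0.24 relative to all probes, with 6 of them above the median of all probes. The other 14 genes written in that list, a chain of type I collagen among them, were not analysed here. Leaving out STZ-B gave a median of −0.17, and leaving out STZ-A one of 0.53. Col5a3, a chain of type V collagen, was 0.98 higher relative to the median and Col7a1, of the anchoring fibrils, 0.76 higher. Col4a4, a basement membrane chain, stood at −4.89 and −4.31 in STZ, against −2.23 and −2.09 in sham. It was the 1 member of the 10 lower at an unadjusted p under 0.05 (adjusted p = 0.172), beside 3.54% of all tested probes.

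In the list of collagen turnover, 7 of 10 were above the median, with a median of 1.102, which was 0.66 when sham-B was left out and 1.52 when sham-A was. There 5 were higher and 1 was lower at an unadjusted p below 0.05, beside 7.32% and 3.54% of all tested probes. Mmp9, a gelatinase, was 7.67 higher relative to the median and Mmp8, a neutrophil collagenase that was well above background in 4 of 4 STZ samples and 2 of 4 sham samples, 5.66 higher, while Prep, a prolyl endopeptidase, was at −1.93. The adjusted p of this list ran from 0.0877 upwards.

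Signals known to act on Plod2 were read in the same way. Of 24 tested genes of the hypoxia-inducible factors and their targets, 17 were above the median of all probes. Of the 24, 2 were higher at an unadjusted p under 0.05, beside 7.32% of all tested probes. In 12 both STZ arrays lay above both sham arrays, beside 26.8% of all tested probes. On median-centred values 7 did, beside 21% of all tested probes. Car9, a carbonic anhydrase, was 1.33 higher relative to the median, Slc2a1, a glucose transporter, 1.48 higher and Ankrd37 1.09 higher (adjusted p = 0.333, 0.460 and 0.475). The list's median was 0.25, with −0.12 when STZ-A was left out and 0.72 when STZ-B was. Of 14 tested genes of TGF-beta and SMAD signalling, 6 were above the median, and the list's median was −0.13, with −0.48 when STZ-A was left out and 0.49 when STZ-B was. Smad7, an inhibitor of the pathway, stood at 0.58 and −0.52 in STZ, against 2.22 and 2.87 in sham (adjusted p = 0.228). Relative to the median of all probes, the signal carrier Smad2 was at −1.17.

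**Figure D3:**
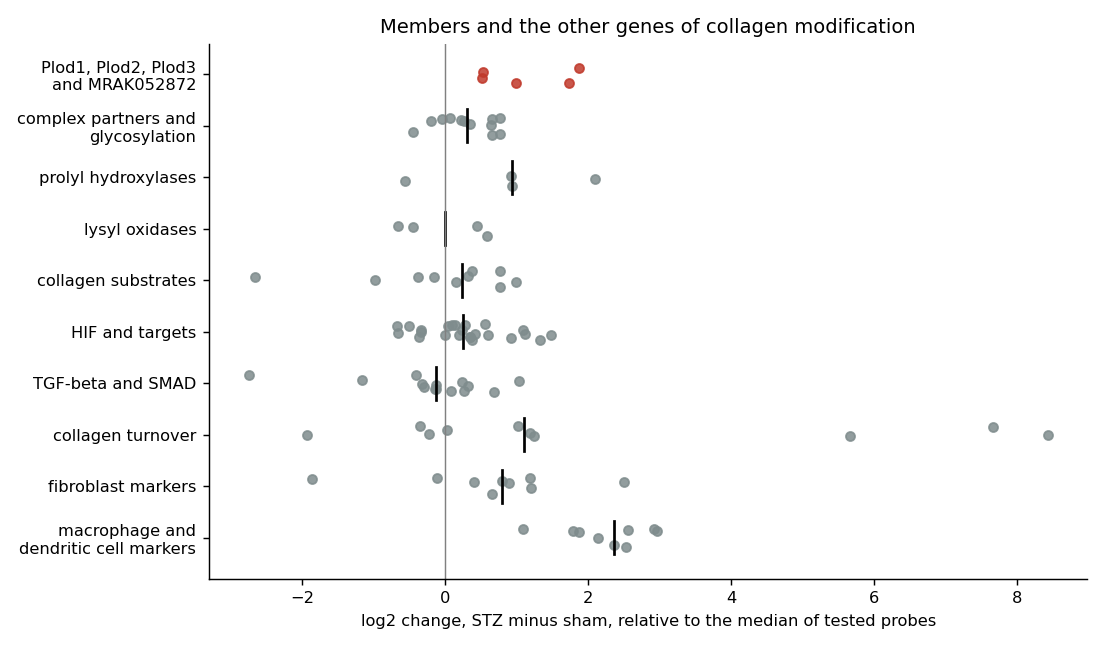
Change of each tested gene, STZ minus sham in log2 units relative to the median of tested probes, by list, with a bar at the median of each list of other genes. The 5 member probes (red) lie between 0.51 and 1.87, and macrophage and dendritic cell markers between 1.09 and 2.96.

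Markers of cell types differed between STZ and sham skin in both directions. In bulk skin, fewer cells of a type and less RNA per cell cannot be told apart. Of 9 tested fibroblast markers 7 were above the median of all probes, with a median of 0.79, and all 9 were well above background in every sample. Their summed signal, in multiples of the array's 75th percentile, was 264 and 538 on the STZ arrays against 188 and 119 on the sham arrays. All 9 tested macrophage and dendritic cell markers were above the median of all probes, with a median of 2.36, and their summed signal was 131 and 169 in STZ against 40.1 and 22.8 in sham. The 9 tested hair shaft and inner root sheath markers were lower in STZ, with sums of 93.7 and 3.92 against 632 and 649 in sham. The 4 tested keratinocyte markers, all well above background in every sample, summed to 334 and 254 in STZ against 308 and 141 in sham. Medians relative to all probes were 3.04 for 5 neutrophil, 2.92 for 8 T and NK cell, 0.45 for 4 endothelial and 0.22 for 5 smooth muscle and pericyte markers. They were −3.73 for 7 erythroid, −0.99 for 6 adipocyte and −0.63 for 7 skeletal muscle markers, −6.61 for the hair markers and 0.23 for the keratinocyte markers. The part of these cell types in the values of the members was not tested.

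Set against the mean of the fibroblast markers on the same array, the members separated. Plod1 was 0.55 and 0.03 above that mean on the STZ arrays, against 0.51 and 0.27 on the sham arrays, and Plod3 was at −0.29 and −0.20 in STZ against −0.02 and −0.24 in sham. For both, the groups overlap, with mean differences of −0.10 and −0.12. Plod2 (NM_175869) was at −1.92 and −2.85 in STZ, against −3.73 and −3.53 in sham, a difference of 1.24 with no overlap (exact p = 0.333), as had 8.65% of all tested probes with STZ higher. MRAK052872 was at −2.63 and −3.14 in STZ, against −3.15 and −3.33 in sham, a difference of 0.36. Its groups were barely apart, since STZ-B at −3.14 lay next to sham-A at −3.15.

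Against the mean of the macrophage and dendritic cell markers every member was lower in STZ than in sham without overlap, as were 83.8% of all tested probes. Plod2 (NM_175869) came closest to keeping pace, at −1.68 and −1.76 in STZ against −1.58 and −1.11 in sham, a difference of −0.38. MRAK052872 differed by −1.26, Plod1 by −1.72 and Plod3 by −1.74. Against the mean of the 10 collagen genes all members were higher in STZ with no overlap, as were 28.9% of all tested probes. The differences were 1.95 for Plod2, 1.07 for MRAK052872, 0.61 for Plod1 and 0.59 for Plod3. That mean includes Col4a4, whose change of −2.44 lowered the mean in STZ. Whether the members stay apart from sham without that gene was not tested.

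**Figure D4:**
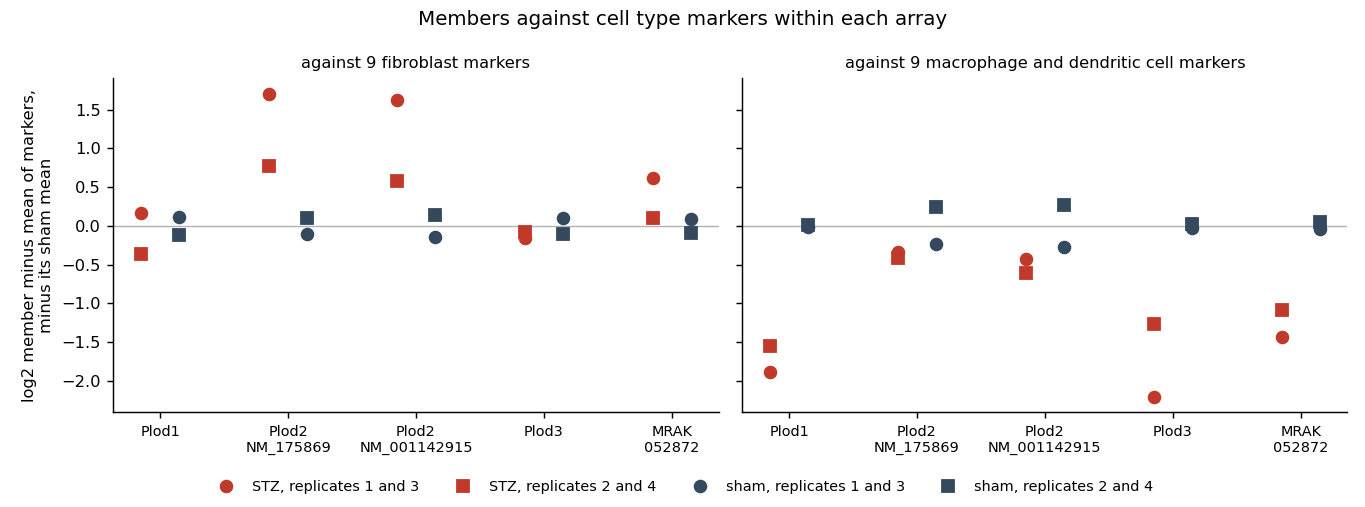
Each member probe minus the mean of 9 fibroblast markers (left) or 9 macrophage and dendritic cell markers (right) on the same array, in log2 units and set to 0 at the sham mean, with STZ red and sham dark. Plod1 and Plod3 overlap sham on the left and lie over 1 below it on the right, while the NM_175869 probe of Plod2 lies on average 1.24 above sham on the left.

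The direction of every member held in the other settings tried, 18 for each probe. Relative to the median of all probes, the change of Plod2 (NM_175869) ran from 1.44 to 2.17, that of MRAK052872 from 0.73 to 1.23, that of Plod1 from 0.26 to 0.89 and that of Plod3 from 0.25 to 0.89. In proportion to their size, the values of Plod1 and Plod3 moved most with single arrays. When sham-B was left out, the changes of Plod1 and Plod3 relative to the median were 0.26 and 0.25, and when sham-A was, 0.80 and 0.77. Plod3 was at 0.30 when STZ-B was left out and at 0.75 when STZ-A was.

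**Figure D5:**
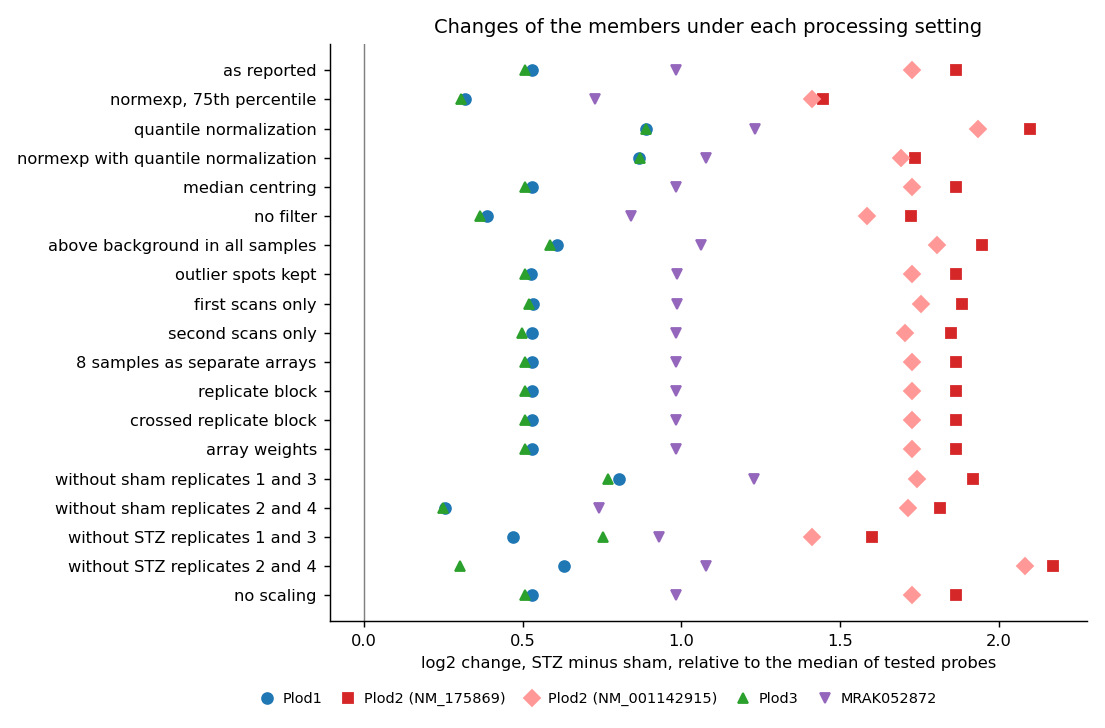
Change of each member, STZ minus sham in log2 units relative to the median of tested probes, as reported and under 18 other settings. All points lie right of 0, with both Plod2 probes between 1.41 and 2.17 and above every other member in each setting.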

How the data were processed

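Total RNA was amplified and labelled with Cy3 (1 colour, Agilent), per the labels' protocols. The deposited intensity of each spot is the processed signal of Agilent Feature Extraction 11.0.1.1, which subtracts background and leaves arrays unscaled to each other, per the file headers (11.0.0.1 per the submitters' processing notes). The deposited median spot and local background intensities are uncorrected. The deposited flags are other values, 0 or 1 per spot.

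Log2 processed signals minus the sample's 75th percentile over 42136 noncontrol spots were averaged per probe without outlier spots, and then over rescans. Tested were the 21527 probes that 4 or more of the 8 samples had well above background, with limma 3.58.1 in R 4.3.3 (two-sided, Benjamini-Hochberg over all), checked on simulated data. The prior had 3.00 degrees of freedom, against 2 residual. Of 15321 probes with NM accessions 14274 were named through RefSeq (GRCr8, while the headers name rn4). Named besides the members are the 3 closest genes to each, all complex partners and the 3 smallest p of each other list, with 1 probe per gene (the brightest). One gene that this rule names is not reported here. The members, the 7 pathway and 11 marker lists and this rule were chosen with earlier results of these data known. Alternatives varied background correction, scaling, filter, scans, blocks, weights and arrays. Whether the arrays are separate animals is not stated, so p-values measure only the spread between them, and their number limits the precision.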

Additional observations from a re-analysis of the deposited data

How the results depend on the processing

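No member passed limma's test in any setting but 1, and 0 probes passed as reported. With the 8 samples as separate arrays, which counts each array 2 times, the values were the same (0.76 for Plod1, 2.09 for Plod2 and 1.21 for MRAK052872) and these 3 passed (adjusted p = 0.0163, 3.84e-05 and 0.00161), as did 5244 probes, while Plod3 did not (0.0739). The number of probes past an adjusted p of 0.05 was 10 after normexp at the 75th percentile, 124 after median centring and 554 without scaling, and 0 to 48 with each array left out in turn. No member was among them, and the cause of these differences was not tested. The 48 came with STZ-A left out. At an unadjusted p below 0.05, 1575 probes were higher and 761 were lower, against 5382 and 1093 with STZ-A left out, 677 and 305 with sham-B left out and 1028 and 366 with sham-A left out. Each such fit leaves 1 array in a group, which is assumed to vary like the other group's 2. After quantile normalization these were 1233 and 1152, with a median change of −0.04, and after normexp with it 1147 and 1358. Replicate numbers do not pair the animals in the labels. With the replicate number as a block, 0 probes passed and Plod1, Plod2, Plod3 and MRAK052872 had adjusted p of 0.731, 0.306, 0.760 and 0.584. Deviations of same-numbered arrays correlated at −0.20 over probes, and with the numbers crossed 0 probes passed, 2084 being higher and 763 being lower at an unadjusted p below 0.05. With each array left out the changes ran from 0.51 to 1.004 for Plod1, 1.98 to 2.20 for Plod2, 0.33 to 1.14 for Plod3 and 0.99 to 1.43 for MRAK052872. Unscaled, they were 0.39, 1.73, 0.37 and 0.84. The mean of both Plod2 probes gave 2.02. Within each scan, which holds all 4 arrays, Plod1 was at 0.76. The unscaled, crossed and mean-probe settings, the differences between members under other scalings, and the list medians without single arrays, were added after the data were seen. No block for the slide was run, since 1 slide held all arrays.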
